A study of Mus musculus with 30 samples.

Results

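Collagens are the triple-helical proteins of the extracellular matrix, and the 41 genes described here encode their chains. They are all the rows of the deposited expression table whose symbol reads Col, a number, a and a number, 41 of 20889 gene symbols. By the kind of assembly the chains build, 11 are fibrillar, 6 are the type IV chains of basement membranes and 24 belong to other families. The rule reads the symbol alone. Col6a3 and Col21a1 were not analysed here.

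The cells came from testes of C57BL/6 mice on postnatal days 0, 7, 12 and 14 (P0, P7, P12 and P14), and their RNA was sequenced. Magnetic beads enriched cells carrying THY1, a surface protein of undifferentiated spermatogonia (P0, P7, P12 and P14), or KIT, the receptor found on differentiating spermatogonia (P7, P12 and P14). Fluorescence sorting gave cells with GFP reporting OCT4, also called Pou5f1 (P0 and P7), or ID4 (P7), both made by early male germ cells. One further group is labelled P7 VASA THY1, after the germ cell helicase VASA and THY1, while the protocol names VASA-GFP sorting at P0 only, so its age and its method of selection are uncertain. P0 THY1, P7 THY1, P12 THY1, P7 KIT and P12 KIT each stand for 2 libraries, and P14 THY1, P14 KIT, P7 VASA THY1, P0 OCT4-GFP, P7 OCT4-GFP and P7 ID4-GFP each stand for 1 library. The table holds 1 value per gene and group, so no difference below has a replicate check or a test, and every value describes these libraries alone. How many animals were pooled, and whether the 2 libraries of a group came from separate animals, is not given. The labels call every sample spermatogonia, and the selections by a reporter or a surface antigen enrich such cells without excluding others.

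A collagen molecule is wound from 3 chains, which may be identical or come from different genes. Fibrillar collagens (types I, II, III, V, XI, XXIV and XXVII) pack into banded fibrils after their end propeptides have been cut off, and are made mainly by fibroblasts and other mesenchymal cells. Type IV chains keep their ends and form a sheet, the scaffold of basement membranes. In the testis such a membrane surrounds each seminiferous tubule, with spermatogonia and Sertoli cells resting on its inner side and peritubular myoid cells on its outer side, and another surrounds the blood vessels. The other families decorate fibrils (the FACIT collagens), form beaded microfibrils (type VI), anchor or modify basement membranes (types VII, XV and XVIII), span the cell membrane (types XIII, XVII, XXIII and XXV) or form short-chain networks (types VIII and X).

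The groups held transcripts of other testis cells to very different extents, and the collagen values should be read beside them. The 6 germ cell markers had their lowest sum in P0 THY1, at 731 FPKM, and their highest in P14 KIT, at 2323 FPKM, so germ cell transcripts were abundant in every group. FPKM, the unit of the table, counts sequenced fragments relative to transcript length and library size, which allows levels to be compared between genes. The sum of the 8 stroma markers was 603 FPKM in P0 THY1, against 7.42 FPKM in P7 ID4-GFP. The 6 myoid markers ran from 942 FPKM in P0 THY1 to 3.27 FPKM in P7 ID4-GFP, the 7 endothelial markers from 195 to 5.84 FPKM in the same groups, and the 8 Sertoli markers from 919 FPKM in P12 THY1 to 12.7 FPKM in P7 ID4-GFP. The 6 Leydig markers were highest in P7 KIT at 783 FPKM, and the 7 macrophage markers were highest in P0 THY1 (259 FPKM) and P0 OCT4-GFP (234 FPKM). None of these markers was at 0 in any group, but in P7 ID4-GFP the Leydig enzyme gene Cyp17a1 stood at 0.0101 FPKM, the myoid actin gene Acta2 at 0.410 FPKM and the vascular gene Emcn at 0.0544 FPKM. In bulk samples such as these, fewer cells of a type and less RNA per cell cannot be told apart. The part that other testis cells have in the collagen values was not tested.

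The stretches just before the start of 5 collagen genes are shown because those genes are partners or neighbours that the results below set against each other: Col1a2, Col3a1 and Col5a1 among the fibrillar chains, and the head-to-head pair Col4a5 and Col4a6. Each is the 250 bases before the start annotated by RefSeq on GRCm38.p6, 5′ to 3′ on the gene's own strand, with capitals marking the motifs found. The motifs searched on both strands were the letters CCAAT, the letters GGGCGG, which on the opposite strand read CCGCCC, and the letters TATAAA. Col1a2 lies at chr6:4505368-4505617 on the plus strand, Col3a1 at chr1:45311288-45311537 on the plus strand, Col5a1 at chr2:27886175-27886424 on the plus strand, Col4a5 at chrX:141475169-141475418 on the plus strand and Col4a6 at chrX:141474077-141474326 on the minus strand.
Col1a2: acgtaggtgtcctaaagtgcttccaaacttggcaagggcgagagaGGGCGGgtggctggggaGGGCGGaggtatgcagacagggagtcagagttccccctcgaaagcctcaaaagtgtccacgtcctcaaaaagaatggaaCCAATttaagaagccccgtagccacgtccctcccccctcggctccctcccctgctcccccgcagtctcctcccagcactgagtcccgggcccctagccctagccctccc
Col3a1: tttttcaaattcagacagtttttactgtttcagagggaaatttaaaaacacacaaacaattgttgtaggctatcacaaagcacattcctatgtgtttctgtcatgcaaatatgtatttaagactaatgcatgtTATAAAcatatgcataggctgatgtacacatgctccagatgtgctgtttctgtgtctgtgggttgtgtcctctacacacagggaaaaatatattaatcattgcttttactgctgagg
Col5a1: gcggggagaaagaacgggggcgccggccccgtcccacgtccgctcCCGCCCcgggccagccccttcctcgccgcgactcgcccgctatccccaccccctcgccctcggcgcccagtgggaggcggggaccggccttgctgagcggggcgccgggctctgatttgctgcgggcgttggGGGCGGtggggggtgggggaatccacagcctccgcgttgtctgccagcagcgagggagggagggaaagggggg
Col4a5: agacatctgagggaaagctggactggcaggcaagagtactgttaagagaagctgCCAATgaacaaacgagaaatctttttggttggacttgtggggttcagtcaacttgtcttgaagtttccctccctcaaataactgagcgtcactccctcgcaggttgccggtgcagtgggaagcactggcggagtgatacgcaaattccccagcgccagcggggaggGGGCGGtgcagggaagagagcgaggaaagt
Col4a6: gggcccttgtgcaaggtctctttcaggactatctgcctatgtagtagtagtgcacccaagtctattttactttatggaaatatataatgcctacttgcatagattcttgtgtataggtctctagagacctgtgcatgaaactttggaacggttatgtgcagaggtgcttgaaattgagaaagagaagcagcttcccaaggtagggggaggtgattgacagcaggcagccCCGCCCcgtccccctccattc

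These stretches differ in composition. The share of G and C is 35.2% before Col3a1, 47.6% before Col4a6, 54% before Col4a5, 62% before Col1a2 and 76.4% before Col5a1. CCAAT, the letters bound by the factor NF-Y, is found 109 to 105 bases before the start of Col1a2 and 196 to 192 bases before that of Col4a5. GGGCGG, a GC box, is found at 2 places before Col1a2, at 2 before Col5a1, and at 1 each before Col4a5 and Col4a6. Col3a1 has neither, and carries TATAAA 117 to 112 bases before its start. Over the 33 of 41 collagen genes with an entry in the promoter table, 13 (39.4%) have CCAAT in this window, against 33.8% of all 32851 windows of that length, and 20 (60.6%) have GGGCGG, against 32.7%. TATAAA is found in 5 (15.2%), against 12.4%. A few genes have more than 1 window, so the 33 collagen genes have 36, and a gene counts once if any holds the letters. The share of all windows counts each window by itself. The shares set side by side are thus counted differently, which can raise those of the collagen genes. Each motif was searched by itself on both strands, so matches of different motifs may overlap, and a match is a description of the letters only.

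Collagen transcripts were most abundant in P0 THY1 and scarcest in P7 ID4-GFP. All 41 chains together made up 1.49% of all FPKM in P0 THY1 and 0.0233% in P7 ID4-GFP. Of the 41 chains, 31 (75.6%) had their highest value in P0 THY1, among them 9 of 11 fibrillar, 4 of 6 type IV and 18 of 24 other chains. Over all 19488 genes above 0 somewhere, 28.9% were highest in that group. At the other end, 22 of 41 chains were lowest in P7 ID4-GFP, and the share of all genes lowest there was not computed. At 5 FPKM or more there were 27 chains in P0 THY1, 17 in P14 THY1, 10 in P14 KIT and 6 in P7 ID4-GFP. These are 65.9%, 41.5%, 24.4% and 14.6% of the chains, against 50.1%, 45.2%, 42.4% and 41.8% of all genes. By their highest value 10 chains reached 100 FPKM, 20 reached between 5 and 100 FPKM, and 11 stayed under 5 FPKM in every group, with highest values between 0.199 and 3.60 FPKM. Those 11 are 3 fibrillar chains (Col2a1, Col11a2 and Col24a1) and 8 others (Col7a1, Col8a1, Col9a1, Col9a3, Col10a1, Col19a1, Col20a1 and Col28a1).

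**Figure D1:**
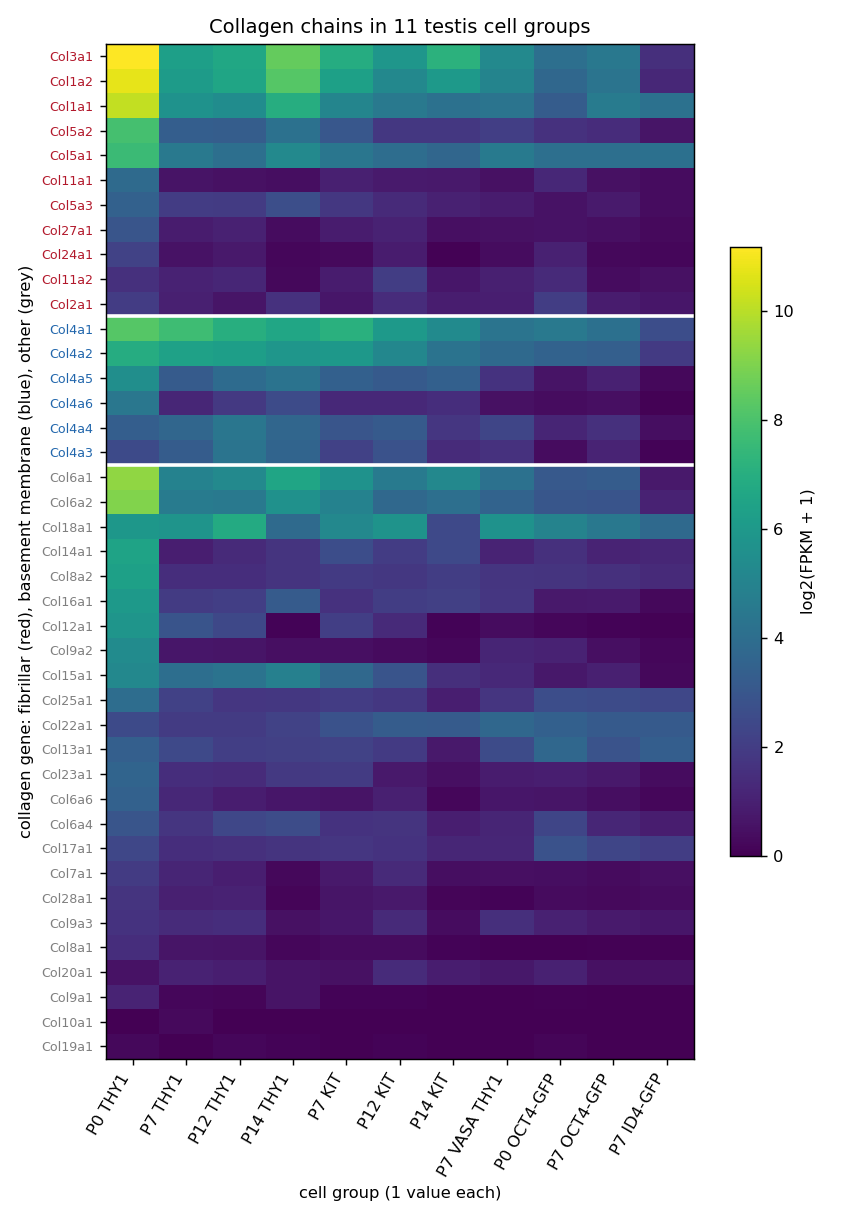
Level of each of the 41 collagen chains (rows, by class) in each of the 11 cell groups (columns), as log2(FPKM + 1), 1 value per cell of the plot. The P0 THY1 column is the brightest for 31 of the 41 rows, and Col3a1 there reaches 2307 FPKM.

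The 3 classes did not change in step between groups. Fibrillar chains summed to 5623 FPKM in P0 THY1, and then to 237, 268 and 855 FPKM in P7, P12 and P14 THY1. They summed to 266, 143 and 244 FPKM in P7, P12 and P14 KIT, to 118 FPKM in P7 VASA THY1, to 63.1 and 83.9 FPKM in P0 and P7 OCT4-GFP, and to 38.8 FPKM in P7 ID4-GFP. P0 THY1 thus stands alone for this class, and P14 THY1 comes next. Type IV chains summed to 495, 324, 259 and 202 FPKM in P0, P7, P12 and P14 THY1, and to 217, 122 and 74.2 FPKM in P7, P12 and P14 KIT. In the remaining groups they summed to 40.6 FPKM in P7 VASA THY1, 34.4 FPKM in P0 OCT4-GFP, 30.4 FPKM in P7 OCT4-GFP and 8.71 FPKM in P7 ID4-GFP. Summed type IV was lower at each later age within both the THY1 and the KIT groups. Its drop from P0 to P7 THY1 was 1.53-fold, against 23.7-fold for the fibrillar sum. Without Col4a1 the step from P7 to P12 THY1 goes the other way, with a log2 difference of 0.21 in place of -0.33. The other families summed to 1673 FPKM in P0 THY1 and to between 83.0 and 225 FPKM in the later THY1 and KIT groups. For them P7 ID4-GFP was again the lowest, at 45.6 FPKM.

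Fibrillar transcripts were 11.4 times as abundant as type IV transcripts in P0 THY1 and 0.732 times as abundant in P7 THY1, the 1 group in which type IV led. The ratio was 1.04 in P12 THY1 and 4.23 in P14 THY1, and 1.22, 1.17 and 3.28 in P7, P12 and P14 KIT. It therefore stood near 1 in the P7 and P12 bead-enriched groups and was above 3 in both P14 groups. In the sorted cells it was 1.84 in P0 OCT4-GFP, 2.75 in P7 OCT4-GFP and 4.46 in P7 ID4-GFP, and it was 2.90 in P7 VASA THY1. Which class leads depends on the chains included. Without the most abundant chain of each class, P7 THY1 held 158 FPKM of fibrillar and 114 FPKM of type IV transcripts. With Col15a1 and Col18a1 counted as basement membrane, that class also led in P12 THY1, P12 KIT and P0 OCT4-GFP. Beside the fibrillar sum, the summed stroma markers moved in the same order at the top and bottom: 603 FPKM in P0 THY1, 300 FPKM in P14 THY1 and 7.42 FPKM in P7 ID4-GFP. Per unit of stroma marker, fibrillar transcripts stood at 9.33 in P0 THY1 and between 1.79 and 5.24 in the other 10 groups.

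**Figure D2:**
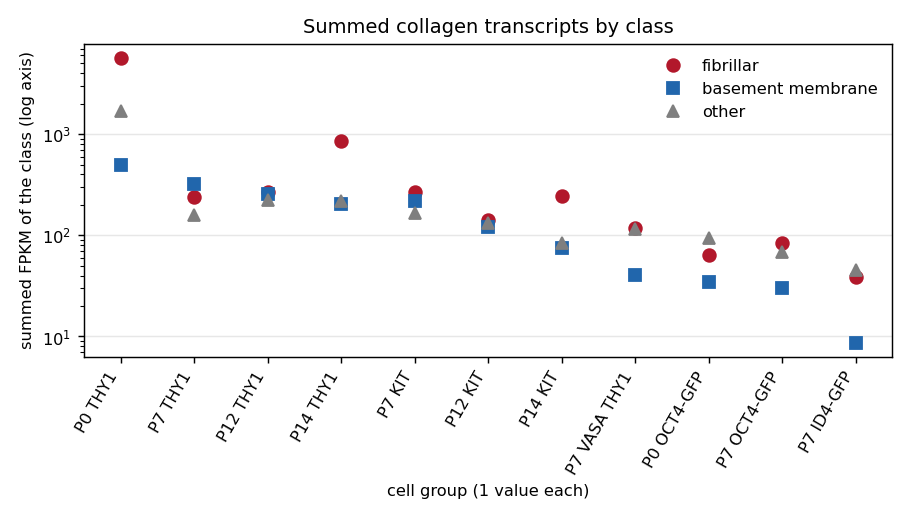
Summed FPKM of fibrillar, basement membrane (type IV) and other collagen chains in each of the 11 cell groups, on a log axis, 1 value per group and class. The fibrillar sum is 5623 FPKM in P0 THY1, 855 FPKM in P14 THY1, and at its lowest 38.8 FPKM in P7 ID4-GFP.

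The fibrillar class was carried by 3 chains. Col1a1 and Col1a2, the partners in type I collagen, and Col3a1, which forms type III collagen by itself, made up 91.7% of the fibrillar sum in P0 THY1, 92.6% in both P14 THY1 and P14 KIT, and 51.7% in P7 ID4-GFP. Col3a1 stood at 2307, 79.2, 101 and 372 FPKM in P0, P7, P12 and P14 THY1, and at 120.3, 57.7 and 145 FPKM in P7, P12 and P14 KIT. It stood at 37.7 FPKM in P7 VASA THY1, 16.2 and 21.0 FPKM in P0 and P7 OCT4-GFP, and 1.87 FPKM in P7 ID4-GFP. Its highest and lowest values thus lie in the bead-enriched newborn cells and the ID4-GFP cells.

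Col1a2, the second chain of type I collagen, stood at 1720 FPKM in P0 THY1 and at 69.3, 93.0 and 295 FPKM in P7, P12 and P14 THY1. It stood at 79.5, 36.7 and 63.8 FPKM in P7, P12 and P14 KIT, at 32.0 FPKM in P7 VASA THY1, at 12.4 and 18.5 FPKM in P0 and P7 OCT4-GFP, and at 1.36 FPKM in P7 ID4-GFP. Col1a2 and Col3a1 kept close to each other: Col3a1 was between 1.09 and 2.27 times Col1a2 in all 11 groups. The sequences before the starts of both genes, printed above, differ in composition and share none of the 3 motifs.

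Col1a1, the main chain of type I collagen, did not follow that pair in every group. It stood at 1132, 51.2, 42.1 and 125 FPKM in P0, P7, P12 and P14 THY1, at 32.9, 22.1 and 17.1 FPKM in P7, P12 and P14 KIT, and at 18.7 FPKM in P7 VASA THY1. In the sorted cells it stood at 8.59 FPKM in P0 OCT4-GFP, 23.9 FPKM in P7 OCT4-GFP and 16.8 FPKM in P7 ID4-GFP, so its lowest value was in P0 OCT4-GFP. Type I collagen is built from 2 copies of the Col1a1 chain and 1 of the Col1a2 chain, whereas Col1a1 transcripts were between 0.267 and 0.738 times Col1a2 transcripts in 9 of the groups. The ratio was 1.29 in P7 OCT4-GFP and 12.4 in P7 ID4-GFP. In P7 ID4-GFP the difference came with Col1a2 at 1.36 FPKM and Col1a1 at about the level of the P14 KIT and P7 VASA THY1 groups.

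Type V collagen, a minor partner inside type I fibrils that sets their width, showed a similar split. Col5a2 stood at 233, 9.02, 8.91 and 17.1 FPKM in P0, P7, P12 and P14 THY1, and at 7.17, 2.55 and 2.50 FPKM in P7, P12 and P14 KIT. It stood at 3.25 FPKM in P7 VASA THY1, 1.99 and 1.63 FPKM in P0 and P7 OCT4-GFP, and 0.558 FPKM in P7 ID4-GFP. Col5a1 stood at 194, 21.8, 16.2 and 37.5 FPKM in P0, P7, P12 and P14 THY1, at 19.8, 15.2 and 12.0 FPKM in P7, P12 and P14 KIT, and at 22.3 FPKM in P7 VASA THY1. Its levels in P0 OCT4-GFP, P7 OCT4-GFP and P7 ID4-GFP were 16.2, 16.0 and 16.2 FPKM, within the range of the P7 to P14 bead-enriched groups. Col5a1 was 0.832 times Col5a2 in P0 THY1 and 29.0 times Col5a2 in P7 ID4-GFP. It made up 3.44% of the fibrillar sum in P0 THY1 and 41.7% in P7 ID4-GFP. The stretch before Col5a1, printed above, has the highest share of G and C of the 5 shown.

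A further 3 fibrillar chains reached 5 FPKM, each in P0 THY1. Col11a1, a chain of the cartilage collagen XI that can also join type V, stood at 13.6 FPKM there and at or below 1.36 FPKM in the other 10 groups. Col5a3, the third type V chain, stood at 10.2 FPKM in P0 THY1, then at 5.44 FPKM in P14 THY1, and was lowest in P7 ID4-GFP at 0.287 FPKM. Col27a1 stood at 6.61 FPKM in P0 THY1 and at or below 1.08 FPKM elsewhere.

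**Figure D3:**
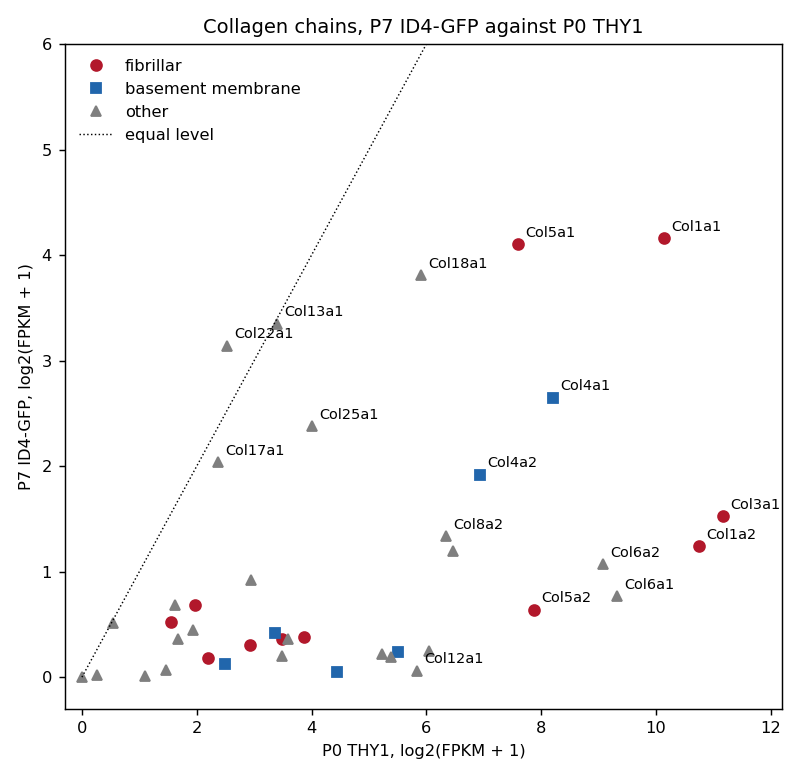
Each of the 41 collagen chains in P7 ID4-GFP (vertical) against P0 THY1 (horizontal), both as log2(FPKM + 1), with equal levels on the dotted line. Col1a1 (16.8 FPKM) and Col5a1 (16.2 FPKM) stand above their partners Col1a2 (1.36 FPKM) and Col5a2 (0.558 FPKM) in P7 ID4-GFP, and Col13a1 and Col22a1 lie near or above the line.

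The 6 type IV genes lie in 3 head-to-head pairs, in which neighbouring genes are read in opposite directions from a shared stretch between them: Col4a1 with Col4a2, Col4a3 with Col4a4, and Col4a5 with Col4a6. Chains of the first pair form the common basement membrane collagen, and Col4a3, Col4a4 and Col4a5 join in the network of selected membranes. The annotated starts of Col4a1 and Col4a2 lie on chromosome 8 at 11312826 (minus strand) and 11312805 (plus strand), so the transcripts overlap over about 21 bases. Whether the authors' counting used the strand is not given in the sources used here, so fragments from such an overlap cannot be assigned with certainty. Those of Col4a6 and Col4a5 lie on chromosome X at 141474076 (minus strand) and 141475419 (plus strand), 1343 bases apart, and the sequences printed for these genes above are both ends of that gap.

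Col4a1 and Col4a2 made up between 77.3% and 93.3% of the type IV sum in each group. Col4a1 stood at 294, 210.4, 127 and 97.9 FPKM in P0, P7, P12 and P14 THY1, at 134, 63.1 and 40.3 FPKM in P7, P12 and P14 KIT, and at 18.9 FPKM in P7 VASA THY1. It stood at 21.7 and 16.5 FPKM in P0 and P7 OCT4-GFP and at 5.27 FPKM in P7 ID4-GFP. Col4a1 was thus lower at each later age in THY1 and in KIT cells. Col4a2 stood at 122, 83.7, 76.7 and 58.2 FPKM in P0, P7, P12 and P14 THY1, at 61.8, 35.4 and 18.4 FPKM in P7, P12 and P14 KIT, and at 13.1 FPKM in P7 VASA THY1. It stood at 10.3 and 9.53 FPKM in P0 and P7 OCT4-GFP and at 2.78 FPKM in P7 ID4-GFP. Col4a1 was between 1.44 and 2.51 times Col4a2 in all 11 groups, a narrower span than that of either fibrillar pair above.

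Col4a3 and Col4a4 had another order of levels, with P12 THY1 highest. Col4a3 stood at 4.65, 8.67, 18.7 and 11.2 FPKM in P0, P7, P12 and P14 THY1, at 3.43, 6.09 and 1.60 FPKM in P7, P12 and P14 KIT, and at 1.98 FPKM in P7 VASA THY1. It stood at 0.282 and 1.16 FPKM in P0 and P7 OCT4-GFP and at 0.0927 FPKM in P7 ID4-GFP. In both the THY1 and the KIT cells its highest value was at P12. Col4a4 stood at 9.25, 12.0, 20.1 and 11.9 FPKM in P0, P7, P12 and P14 THY1, at 6.60, 7.92 and 2.46 FPKM in P7, P12 and P14 KIT, and at 4.10 FPKM in P7 VASA THY1. It stood at 1.25 and 1.89 FPKM in P0 and P7 OCT4-GFP and at 0.340 FPKM in P7 ID4-GFP. Col4a4 was between 1.06 and 4.42 times Col4a3. The 2 type IV chains that were not highest in P0 THY1 are these. The ratio of Col4a3 to Col4a1 was highest in P12 THY1, at 0.147, where the Sertoli sum was also highest (919 FPKM). The ratio was next highest in P14 THY1 (0.114) and P7 VASA THY1 (0.105), with Sertoli sums of 30.3 and 664 FPKM. Any connection between this ratio and the Sertoli markers was not tested.

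Col4a5 and Col4a6 were highest in P0 THY1 and, among the later groups, in P14 THY1. Col4a5 stood at 44.6, 8.33, 13.8 and 17.9 FPKM in P0, P7, P12 and P14 THY1, at 9.86, 7.88 and 9.76 FPKM in P7, P12 and P14 KIT, and at 2.12 FPKM in P7 VASA THY1. It stood at 0.485 and 1.06 FPKM in P0 and P7 OCT4-GFP and at 0.182 FPKM in P7 ID4-GFP. Col4a6 stood at 20.7, 1.29, 2.58 and 4.92 FPKM in P0, P7, P12 and P14 THY1, at 1.45, 1.42 and 1.74 FPKM in P7, P12 and P14 KIT, and at 0.402 FPKM in P7 VASA THY1. It stood at 0.297 and 0.357 FPKM in P0 and P7 OCT4-GFP and at 0.0360 FPKM in P7 ID4-GFP. Unlike Col4a1 and Col4a2, this pair was not lower at each later age in KIT cells. Col4a5 was 1.63 to 6.81 times Col4a6, and the order of the later THY1 ages in this pair, P14 above P12 above P7, was that of Col1a2 and Col3a1, the opposite of Col4a1.

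**Figure D4:**
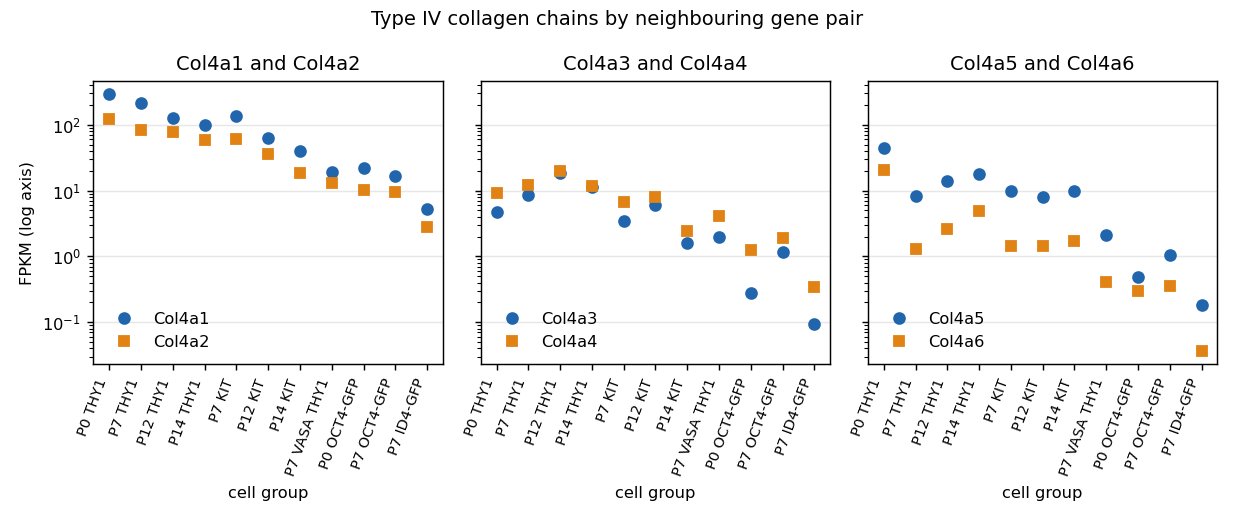
FPKM of the 6 type IV chains on a log axis in the 11 cell groups, 1 panel for each head-to-head gene pair and 1 point per group. Col4a1 and Col4a2 go down from P0 to P14 THY1, Col4a3 and Col4a4 are highest in P12 THY1 (18.7 and 20.1 FPKM), and Col4a5 and Col4a6 are highest in P0 THY1 (44.6 and 20.7 FPKM).

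Among the 24 other chains, the highest single value was that of the type VI chain Col6a1 in P0 THY1, while in 7 of the 11 groups Col18a1, described next, stood above both Col6a1 and Col6a2. Type VI chains form beaded filaments between cells and their basement membranes. Col6a1 stood at 641, 30.4, 37.6 and 94.3 FPKM in P0, P7, P12 and P14 THY1, at 51.5, 23.6 and 35.7 FPKM in P7, P12 and P14 KIT, and at 17.2 FPKM in P7 VASA THY1. It stood at 7.61 and 8.38 FPKM in P0 and P7 OCT4-GFP and at 0.703 FPKM in P7 ID4-GFP. Col6a2 stood at 536, 23.8, 21.8 and 48.7 FPKM in P0, P7, P12 and P14 THY1, at 30.5, 12.6 and 15.7 FPKM in P7, P12 and P14 KIT, and at 10.9 FPKM in P7 VASA THY1. It stood at 7.05 and 6.56 FPKM in P0 and P7 OCT4-GFP and at 1.11 FPKM in P7 ID4-GFP. The order of the groups was close to that of the main fibrillar chains, and Col6a1 was between 0.636 and 2.27 times Col6a2. Col6a6 (10.2 FPKM) and Col6a4 (6.72 FPKM), chains that can take the third place in the type VI molecule, were also highest in P0 THY1, and Col6a4 still stood at 5.04 FPKM in P14 THY1 and 4.11 FPKM in P0 OCT4-GFP.

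Col18a1, the source of the fragment endostatin and a proteoglycan of basement membranes, had the highest level of any chain outside the fibrillar, type IV and type VI groups, and its own order of levels. It stood at 58.9, 53.7, 113 and 13.6 FPKM in P0, P7, P12 and P14 THY1, at 35.6, 52.6 and 4.46 FPKM in P7, P12 and P14 KIT, and at 51.4 FPKM in P7 VASA THY1. It stood at 30.8 and 21.2 FPKM in P0 and P7 OCT4-GFP and at 13.0 FPKM in P7 ID4-GFP. Its highest value was thus in P12 THY1 and its lowest in P14 KIT, and both P14 values lay below those of P12. The summed Sertoli markers also stood highest in P12 THY1 (919 FPKM) and were low in P14 THY1 (30.3 FPKM) and P14 KIT (35.8 FPKM). They were lowest in P7 ID4-GFP (12.7 FPKM), where Col18a1 stood above its P14 KIT level. In P0 THY1 the Sertoli sum was below that of P7 THY1 (213 against 392 FPKM), while Col18a1 was higher. The part of Sertoli cells in the Col18a1 values was not tested. Col15a1, its relative, which sits where basement membranes meet fibrils, differed from it: 36.3, 15.2, 18.2 and 28.3 FPKM in P0, P7, P12 and P14 THY1, then 12.7, 6.59 and 1.84 FPKM in P7, P12 and P14 KIT, and 0.165 FPKM in P7 ID4-GFP.

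The FACIT collagens, which sit on the surface of fibrils, were mostly transcripts of P0 THY1. Col14a1 stood at 87.0 FPKM there, 0.936 FPKM in P7 THY1 and 5.20 FPKM in P7 KIT. Col16a1 stood at 64.8 FPKM in P0 THY1 and next at 8.28 FPKM in P14 THY1. Col12a1 stood at 56.1 FPKM in P0 THY1, 6.56 FPKM in P7 THY1, 4.35 FPKM in P12 THY1 and 0.0859 FPKM in P14 THY1, so it was low in P14 THY1, where the main fibrillar chains were high. Col9a2, known from cartilage, stood at 40.8 FPKM in P0 THY1 and at or below 1.22 FPKM in the other groups. Col22a1, known from tissue junctions, went the other way: it stood between 2.82 FPKM in P12 THY1 and 12.2 FPKM in P7 VASA THY1, with 4.76 FPKM in P0 THY1, 9.73 FPKM in P0 OCT4-GFP and 7.83 FPKM in P7 ID4-GFP. In each of the 3 KIT groups (6.04, 8.64 and 8.20 FPKM) it was higher than in the THY1 group of the same age (2.88, 2.82 and 3.63 FPKM).

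Of the 4 transmembrane collagens 3 stood higher in each GFP-sorted group than in any THY1 or KIT group after P0, P7 VASA THY1 included: Col13a1, Col17a1 and Col25a1. Col13a1 was highest in P0 OCT4-GFP at 12.1 FPKM, with 9.50 FPKM in P0 THY1, 9.20 FPKM in P7 ID4-GFP and a highest value after P0 of 4.85 FPKM among the THY1 and KIT groups. Col17a1, a component of hemidesmosomes in skin, was also highest in P0 OCT4-GFP at 6.00 FPKM and stood at 4.14 FPKM in P0 THY1, against 3.11 FPKM in P7 ID4-GFP. Col25a1 stood at 15.1 FPKM in P0 THY1, 5.22 FPKM in P0 OCT4-GFP and 4.19 FPKM in P7 ID4-GFP. Col23a1 was highest in P0 THY1, at 10.999 FPKM, and lowest in P7 ID4-GFP, at 0.288 FPKM, and stood at 0.921 and 0.704 FPKM in P0 and P7 OCT4-GFP. The short-chain collagen Col8a2, known from vessel walls and the cornea, stood at 80.1 FPKM in P0 THY1 and between 1.53 and 3.09 FPKM in all others. At 5 FPKM or more, P7 ID4-GFP held Col1a1, Col5a1, Col4a1, Col18a1, Col13a1 and Col22a1, 6 chains in all.

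Comparisons between groups were made on log2(FPKM + 1). A chain was counted as higher or lower at a log2 difference of 2 or more (4-fold) with at least 5 FPKM in the higher group. For these comparisons, shares of all genes were computed by this rule. They were not computed for the 2-fold differences, or for the counts of chains above and below a level, also given below. Over the 10 comparisons below no chain was counted as higher in the first-named group by that rule, so all counts are of lower chains. The comparisons share groups: P0 THY1 stands in 2 of them and P7 THY1 in 6, so their counts are not separate evidence.

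Sorted OCT4-GFP cells of newborn mice had far lower collagen levels than THY1-enriched cells of the same age. Of 41 chains 23 were counted as lower in P0 OCT4-GFP, against 5.61% of all genes, and none as higher, against 0.723%. Lower were 8 of 11 fibrillar, 5 of 6 type IV and 10 of 24 other chains. The median difference over the 41 was -2.63, against -0.05 over all genes. The sum of fibrillar chains was 89.1-fold lower, that of type IV chains 14.4-fold and that of the others 17.9-fold. Col3a1 (difference -7.07), Col1a2 (-7.01) and Col1a1 (-6.88) differed most, and Col5a1 differed by -3.50. Among the 6 chains with 5 FPKM or more that were not counted, Col25a1 differed by -1.37, Col18a1 by -0.91 and Col6a4 by -0.60, while Col13a1 (0.32), Col17a1 (0.45) and Col22a1 (0.90) stood above the P0 THY1 level. Beside this, the stroma markers were 26.9-fold and the myoid markers 61.9-fold lower in sum, all 8 and all 6 of them counted as lower. The endothelial sum was 11.6-fold lower with 6 of 7 counted, the Leydig sum 10.7-fold with 4 of 6 and the Sertoli sum 5.002-fold with 4 of 8, while the macrophage sum was 1.11-fold lower with 0 of 7. The part of these cells in the difference was not tested.

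Between P0 and P7 in THY1 cells the fibrillar and the basement membrane chains parted. At P7, 18 of 41 chains were counted as lower, against 3.05% of all genes, and none as higher, against 0.33%. They were 7 of 11 fibrillar chains, 9 of 24 others and 2 of 6 type IV chains, Col4a5 (-2.29) and Col4a6 (-3.24). The median difference was -3.09 for fibrillar, -1.06 for other and -0.51 for type IV chains, and -0.06 over all genes. The fibrillar sum was 23.7-fold lower, the sum of the others 10.5-fold and the type IV sum 1.53-fold. Col14a1 (-5.51), Col8a2 (-4.87), Col3a1 (-4.85) and Col9a2 (-4.73) differed most. Col4a1 (-0.48) and Col4a2 (-0.53) were little lower, and Col4a3 (0.77) and Col4a4 (0.34) stood higher at P7. The marker sums parted as well: stroma was 7.95-fold lower with all 8 markers counted, myoid 6.70-fold lower with 5 of 6, macrophage 9.56-fold lower with 5 of 7, and endothelial 1.55-fold lower with 0 of 7, while the Sertoli sum was 1.84-fold higher. Their part in the difference was not tested.

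From P7 to P12 no collagen chain was counted in THY1 cells in either direction, against 0.464% of all genes higher and 0.191% lower. With P7 VASA THY1 in place of P7 THY1, 6 chains were counted as higher at P12. The share of all genes was not computed for that replacement, so this count has no background beside it. The differences ran close to 0 for the fibrillar chains (median -0.02). Col18a1 (1.07) and Col4a3 (1.03) were at least 2-fold higher at P12, on the same scale. From P12 to P14, 1 chain was counted, Col18a1, which was lower at P14 (difference -2.97), against 2.79% of all genes lower and 3.35% higher. No fibrillar chain was counted. Of the 11, 7 stood above their P12 level at P14 and 4 below it (Col11a1, Col11a2, Col24a1 and Col27a1), and 4 were at least 2-fold higher: Col3a1 (1.87), Col1a2 (1.66), Col1a1 (1.55) and Col5a1 (1.17). The fibrillar sum was 3.19-fold higher. The type IV sum at P14 was 0.781 times that at P12. In the same step the stroma markers were 2.01-fold and the Leydig markers 2.104-fold higher in sum. The Sertoli markers were 30.3-fold, the myoid markers 3.84-fold, the endothelial markers 3.07-fold and the macrophage markers 1.376-fold lower. From P7 to P12 in THY1 cells the fibrillar sum was 1.129-fold higher. There the stroma sum was 1.975-fold, the myoid sum 1.829-fold, the Sertoli sum 2.341-fold and the macrophage sum 2.313-fold higher. The Leydig sum was 1.707-fold and the endothelial sum 1.613-fold lower. The part of these cells in either step was not tested.

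Type IV chains made up 5 of the 7 chains counted in P7 OCT4-GFP and 2 of the 4 counted in P7 VASA THY1, each against P7 THY1. In P7 OCT4-GFP 7 chains were counted as lower, against 2.02% of all genes (0.163% were higher): Col4a1 (-3.60), Col4a2 (-3.01), Col4a3 (-2.16), Col4a4 (-2.17), Col4a5 (-2.18), Col12a1 (-2.82) and Col15a1 (-3.04). No fibrillar chain was among them, although Col5a2 (-1.93), Col3a1 (-1.87) and Col1a2 (-1.85) came close to the rule. The type IV sum was 10.7-fold lower and the fibrillar sum 2.83-fold. In P7 VASA THY1 4 chains were counted as lower, Col4a1 (-3.41), Col4a2 (-2.58), Col12a1 (-2.54) and Col15a1 (-2.72), against 1.53% of all genes (0.206% were higher). The type IV sum was 7.98-fold lower and the fibrillar sum 2.01-fold. Col12a1 and Col15a1 were thus counted with type IV chains in each of these groups. Beside the type IV sums, the endothelial markers were 14.0-fold lower in P7 OCT4-GFP and 18.6-fold lower in P7 VASA THY1, and the myoid markers 7.00-fold and 4.47-fold. The Sertoli sum was 5.06-fold lower in P7 OCT4-GFP and 1.69-fold higher in P7 VASA THY1. The stroma sum was 3.52-fold lower in P7 OCT4-GFP and 1.89-fold in P7 VASA THY1, and the Leydig sum 4.01-fold and 4.82-fold. The macrophage sum was 5.94-fold higher in P7 OCT4-GFP, with 5 of 7 markers counted as higher, and 4.68-fold lower in P7 VASA THY1. The part of those cells was not tested.

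P7 ID4-GFP had the lowest type IV level of all groups and differed from P7 THY1 in all 3 classes. Here 12 chains were counted as lower, against 3.11% of all genes (0.0814% were higher). They were 5 type IV chains, with Col4a1 (-5.08) and Col4a2 (-4.48) first, 3 fibrillar chains, Col1a2 (-4.90), Col3a1 (-4.80) and Col5a2 (-2.68), and 4 others, Col6a1 (-4.21), Col15a1 (-3.80), Col6a2 (-3.56) and Col12a1 (-2.86). Col4a6, the sixth type IV chain, stood at 1.29 FPKM in P7 THY1 and could not reach the rule. Col1a1 (-1.55) and Col5a1 (-0.41) were not counted, in contrast to their partners, and Col13a1 (0.88) and Col22a1 (1.19) stood above the P7 THY1 level. The type IV sum was 37.3-fold lower, the fibrillar sum 6.11-fold and the sum of the others 3.51-fold. The stroma, myoid, Sertoli, Leydig and endothelial sums were lower by between 10.2-fold (stroma) and 43.0-fold (myoid), and their part was not tested.

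Between KIT and THY1 cells of the same age, chains were counted at P14 and not at P7 or P12. At P7 the count was 0, against 0.148% of all genes higher and 0.211% lower in KIT cells. The median difference was -0.22, against 0 over all genes. Of the 41 chains 28 stood below the THY1 level and 13 above it, a split that was not computed over all genes. Among those above were Col14a1 (1.68), Col22a1 (0.86), Col6a1 (0.74) and Col3a1 (0.60), and among those below was Col4a3 (-1.13). The type IV sum was 1.49-fold lower, while the fibrillar and other sums were 1.12-fold and 1.04-fold higher. With P7 VASA THY1 in place of P7 THY1, 3 chains were counted as higher in P7 KIT, and the share of all genes was not computed for it. At P12 again no chain was counted, against 0.139% higher and 0.101% lower over all genes. There 8 of 41 chains were lower in KIT cells by 2-fold or more, and the fibrillar, type IV and other sums were lower by 1.87-fold, 2.12-fold and 1.71-fold. At P14 5 chains were counted as lower in KIT cells, against 3.16% of all genes (0.201% were higher): Col15a1 (-3.37), Col1a1 (-2.80), Col5a2 (-2.37), Col4a3 (-2.23) and Col1a2 (-2.19). With a pseudocount of 0.1 in place of 1 the count was 8. With a pseudocount of 1 another 14 chains were at least 2-fold lower, which makes 19 of 41. The share of all genes at 2-fold was not computed at P12 or P14. At P14 the median difference was -0.81 over the chains, against 0 over all genes. The fibrillar sum was 3.51-fold, the type IV sum 2.72-fold and the sum of the others 2.65-fold lower. The stroma markers were 4.22-fold and the myoid markers 14.1-fold lower in P14 KIT, with 4 of 8 and 4 of 6 counted. The macrophage sum was 14.5-fold lower with 3 of 7 counted, and the endothelial sum 3.76-fold lower with 0 of 7. The Leydig sum was 3.59-fold higher with 2 of 6 counted, and the Sertoli sum 1.18-fold higher with 0 of 8. Leydig markers were also higher in KIT cells at P7 (7.23-fold) and P12 (2.79-fold). The part of these cells was not tested. Whether the difference between KIT and THY1 cells itself differs between ages was not tested.

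**Figure D5:**
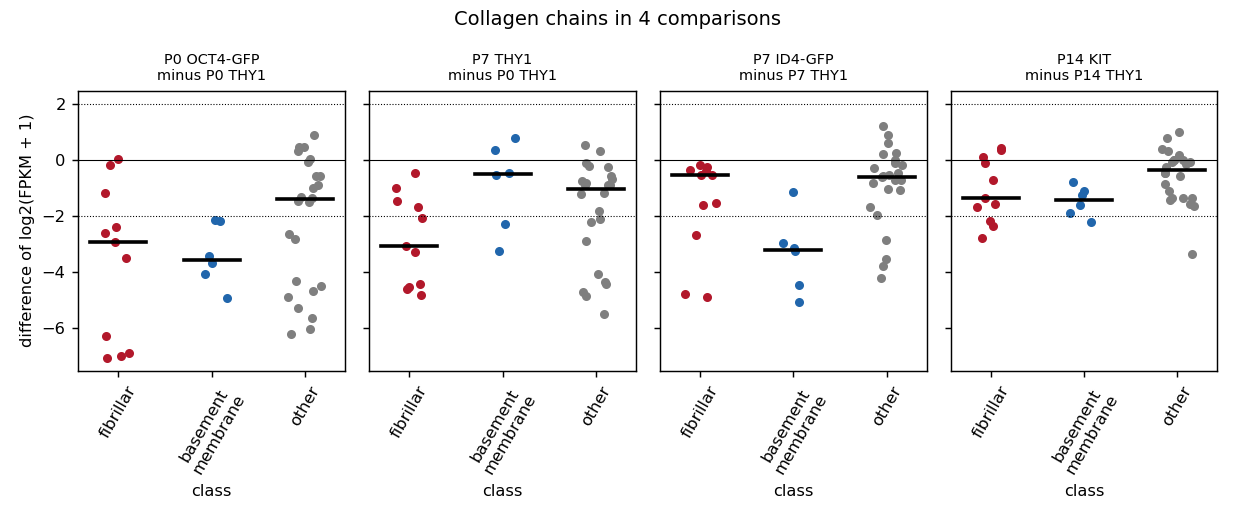
Difference of log2(FPKM + 1) for each collagen chain (points) by class in 4 of the 10 comparisons, with the class median as a bar and the 4-fold limits as dotted lines. From P0 to P7 THY1 the fibrillar median is -3.09 and the type IV median -0.51, while in P7 ID4-GFP against P7 THY1 the type IV chains lie lowest.

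The genes that make, process, bind and break down collagen were read from 7 lists of 71 genes. Their counts stand beside the share of all genes counted as lower: 3.05% in P7 THY1 and 5.61% in P0 OCT4-GFP, both against P0 THY1; 2.02% in P7 OCT4-GFP, 3.11% in P7 ID4-GFP and 1.53% in P7 VASA THY1, each against P7 THY1. It was 2.79% in P14 against P12 THY1 and 3.16% in P14 KIT against P14 THY1. In lists of 5 to 15 genes, 0 or 1 counted is near these shares and says nothing particular about a list. Prolyl and lysyl hydroxylation, which the triple helix needs to be stable and to be crosslinked, belongs to the endoplasmic reticulum of every secreting cell. Its P4hb, a subunit of prolyl 4-hydroxylase that also folds other proteins, stood between 215 and 475 FPKM and was highest in P7 ID4-GFP, and the folding enzyme Ppib stood between 158 and 398 FPKM. Of the 15 genes in this list 2 were counted as lower in P7 THY1 than in P0 THY1 (P3h3 and Crtap), 5 in P0 OCT4-GFP than in P0 THY1 (P3h1, P3h2, P3h3, P3h4 and Crtap), and none in P7 OCT4-GFP, P7 ID4-GFP or P7 VASA THY1 than in P7 THY1. Plod2, a lysyl hydroxylase, was highest in P12 THY1 at 106 FPKM and counted as lower in P14 THY1, at 25.4 FPKM. Colgalt1, which adds galactose to collagen, stood between 22.1 and 56.8 FPKM.

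The chaperones of collagen were highest in P0 THY1 and lowest or nearly so in P7 ID4-GFP, as most chains were. Serpinh1, the collagen chaperone HSP47, stood at 477 FPKM in P0 THY1, 114 FPKM in P7 THY1 and 17.5 FPKM in P7 ID4-GFP. Fkbp10 stood at 88.2 FPKM in P0 THY1, against 9.76 FPKM in P7 ID4-GFP, and Fkbp14 at 30.9 against 1.49 FPKM. Sparc, a collagen-binding matrix protein, stood at 912 FPKM in P0 THY1, against 3.10 FPKM in P7 ID4-GFP. Of the 5 genes in the list, all 5 were counted as lower in P0 OCT4-GFP than in P0 THY1, and 3 (Serpinh1, Fkbp10 and Fkbp14) in P7 THY1 than in P0 THY1. Serpinh1 and Sparc were counted as lower in P7 OCT4-GFP and in P7 ID4-GFP than in P7 THY1.

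Of the 12 genes that cut procollagen and crosslink fibrils 6 were counted as lower in P7 THY1 than in P0 THY1, against 3.05% of all genes. In P0 OCT4-GFP 7 were lower than in P0 THY1, against 5.61%, and none was higher. Pcolce, an enhancer of the C-propeptide protease, stood at 156 FPKM in P0 THY1, 22.6 FPKM in P7 THY1 and 75.5 FPKM in P14 THY1. Lox, a crosslinking oxidase, stood at 68.9 FPKM in P0 THY1, 4.78 FPKM in P7 THY1 and 1.89 FPKM in P14 THY1, so it was not higher at P14. Its relatives Loxl1 (55.7 FPKM) and Loxl2 (48.8 FPKM) were also highest in P0 THY1, and Loxl1 was the 1 gene of the list counted as lower in P14 KIT than in P14 THY1.

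Among the 7 lists, the proteins that bind fibrils had the largest share counted from P0 to P7 in THY1 cells: 7 of 8 were lower in P7 THY1, against 3.05% of all genes, and 7 of 8 in P0 OCT4-GFP against P0 THY1, where 5.61% of all genes were. Decorin (Dcn), which coats type I fibrils, stood at 900.3 FPKM in P0 THY1, 73.6 FPKM in P7 THY1, 435 FPKM in P14 THY1 and 0.907 FPKM in P7 ID4-GFP. Periostin (Postn) stood at 306 FPKM in P0 THY1 and at or below 7.71 FPKM elsewhere, and lumican (Lum) at 171 FPKM in P0 THY1 and at or below 7.26 FPKM elsewhere. Biglycan (Bgn) stood at 147 FPKM in P0 THY1, against 37.5 FPKM in P14 THY1. Dcn and Lum were counted as lower in P14 KIT than in P14 THY1.

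Of the basement membrane partners 0 of 12 were counted from P0 to P7 in THY1 cells, near the 3.05% of all genes counted as lower, and their median difference was -0.89. In P0 OCT4-GFP 6 of 12 were counted as lower than in P0 THY1, against 5.61%, among them Nid1, which links laminin to type IV collagen (18.1 against 121 FPKM). The laminin chain Lamb1 was not among them: it stood at 94.4 FPKM in P0 OCT4-GFP and 125 FPKM in P0 THY1, and at 77.5 FPKM in P7 ID4-GFP. Nid2, the second nidogen, was highest in P0 OCT4-GFP at 64.7 FPKM and stood at 62.5 FPKM in P7 ID4-GFP. Lamc1, the common laminin gamma chain, stood at 62.1 FPKM in P0 THY1, against 27.7 FPKM in P7 ID4-GFP. The ID4-GFP cells with the lowest type IV level thus still held laminin and nidogen transcripts, and 3 of 12 partners (Lama2, Lama4 and Lamc3) were counted as lower there than in P7 THY1.

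Of the 9 receptor genes, 1 was counted as lower in P7 THY1 and in P0 OCT4-GFP than in P0 THY1, Ddr2, a tyrosine kinase receptor for fibrillar collagen (15.2 FPKM in P0 THY1). Itgb1, the beta chain shared by the collagen-binding integrins, stood between 64.0 and 155 FPKM in all groups. Ddr1, which also binds type IV collagen, was highest in P12 THY1 at 66.0 FPKM and stood at 10.3 FPKM in P14 THY1 and 1.51 FPKM in P14 KIT, and was counted in both steps. Itga1, a chain of a collagen-binding integrin, reached 9.75 FPKM in P0 THY1. Of the 10 genes for breakdown and uptake 4 were counted as lower in P7 THY1 than in P0 THY1, Timp2, Ctsk, Mrc2 and the gelatinase Mmp2, the last at 17.1 against 188 FPKM. In P0 OCT4-GFP 6 were lower, against 5.61% of all genes, and 1 was higher, against 0.723%: Mmp9, another gelatinase, stood at 40.3 FPKM against 9.25 FPKM in P0 THY1. The protease inhibitors Timp1 (8.21 against 43.5 FPKM) and Timp3 (8.23 against 54.0 FPKM) were counted as lower in P14 THY1 than in P12 THY1. The membrane protease Mmp14 was highest in P0 THY1, at 74.1 FPKM.

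No gene of the 7 lists was counted between P7 and P12 THY1 or between KIT and THY1 cells at P7 and P12. Over all genes only 0.101% to 0.464% were counted in each direction there, so 0 of 71 genes, and 0 of 41 chains, is near the background. In P7 ID4-GFP against P7 THY1, apart from the genes already given, Bmp1, Adamts2 and Pcolce among the processing genes, Dcn, Bgn, Fbn1 and Postn among the fibril partners, and Mmp2, Timp1, Timp2 and Timp3 among the breakdown genes were counted as lower. In P7 OCT4-GFP the further genes counted as lower were Dcn, Lama4, Timp1 and Timp3, and in P7 VASA THY1 they were Bgn, Lama4 and Timp1. At P14 the counted genes were Loxl1, Dcn, Lum, Ddr1 and 3 basement membrane partners (Lama2, Lamc3 and Nid1), each lower in KIT cells.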

How the data were processed

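RNA was sequenced in testis cell groups of mice. Per the labels' protocols, ribosomal RNA was removed and directional libraries were made. The submitters' processing notes name CASAVA, TopHat2 2.0.9, Cufflinks 2.1.1 and the mouse build mm9, with no order of steps; the annotation and the way 2 libraries were combined are not given in the sources used here. The authors deposited FPKM, fragments normalised for transcript length and library size, for 20889 symbols in 11 columns, 1 per group. The other 14 samples of the 30 in the series (bisulfite and chromatin libraries) were not analysed here.

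Differences of log2(FPKM + 1), class sums and ratios of the deposited values were computed with Python 3.11.15, numpy 2.4.6 and pandas 2.3.3, and plotted with matplotlib 3.10.9. The pseudocount of 1 understates differences of low genes. A gene was counted at a difference of 2 or more with 5 FPKM or more in the higher column; with 1 value per group no test, interval or standard deviation could be had. Read depth is unknown. Steps between values under 0.05 FPKM gave the worth of 1 fragment relative to P14 THY1. It was 3.72 in P7 THY1 and 0.957 to 2.04 in the remaining columns. Only 14.8% of 237 genes bear out the step of P7 THY1, and between 16.1% and 29.2% bear out those of the remaining columns. All these steps are therefore rough, and low values may be least certain in P7 THY1. The columns' 75th percentiles ran from 17.2 to 18.2 FPKM.

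The members, classes, comparisons and lists were chosen with earlier results of these data known. Every chain at 5 FPKM or more is named, and those at 100 FPKM or more and the type IV chains are given in each group; in each of the 7 pathway lists the up to 4 highest genes are named, plus any against the majority of its list. Other genes are named where 5 or fewer were counted, after their values were seen, as were the chains behind the remarks on partners and on sorted cells. Of the list genes, 6 matched through a synonym and 1, Mia3, is not used here. Sequences are from RefSeq, GRCm38.p6, matched by symbol, and were not mixed with coordinates of the deposited table. Alternatives were another pseudocount, no minimum, upper-quartile scaling, P7 VASA THY1 in place of P7 THY1, and other class definitions.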

Additional observations from a re-analysis of the deposited data

Results flagged for a closer look

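A few chains differed in opposite directions, by at least 1.5-fold each way with 5 FPKM or more, under the same contrast at different ages or in different selections. The criterion and the contrast in OCT4-GFP cells were chosen after the values were seen, and with 1 value per group the differences were not tested.

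From P0 to P7, Col1a1 differed by -4.44 in THY1 cells (1132 to 51.2 FPKM) and by 1.38 in OCT4-GFP cells (8.59 to 23.9 FPKM), a gap of 5.82 on the log2 scale. Its partner Col1a2 also stood higher at P7 in OCT4-GFP cells, by 0.54. The stroma markers summed to 22.4 FPKM in P0 OCT4-GFP and 21.5 FPKM in P7 OCT4-GFP. In the same order, the Sertoli sums were 42.6 and 77.6 FPKM, the myoid sums 15.2 and 20.1 FPKM and the Leydig sums 19.9 and 27.1 FPKM. The macrophage sums were 234 and 161 FPKM and the endothelial sums 16.8 and 8.99 FPKM. The part of other cells in these groups was not tested.

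Between KIT and THY1 cells, Col3a1 differed by 0.60 at P7, -0.79 at P12 and -1.36 at P14. The gaps to P7 were -1.39 at P12 and -1.95 at P14. Col6a1 differed by 0.74 at P7, -0.65 at P12 and -1.38 at P14, with gaps of -1.39 and -2.12. Stroma markers in KIT cells summed 1.36-fold higher than in THY1 cells at P7, 2.90-fold lower at P12 and 4.22-fold lower at P14. The endothelial sum was 1.20-fold higher at P7, then 1.68-fold and 3.76-fold lower. Leydig markers were higher in KIT cells at each age, by 7.23-fold, 2.79-fold and 3.59-fold. Myoid and macrophage sums were lower at each age, and the Sertoli sum was lower at P7 and P12 and 1.18-fold higher at P14. The part of other cells in these differences was not tested.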

How the results depend on the processing

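No paired analysis was possible because the table holds 1 value per group, and for the same reason no replicate could be left out. Scaling the columns to the same upper quartile left all 10 counts within 1.5 times and all 30 class-sum differences within the limit used. No class-sum difference of 1 or more on the log2 scale reversed under the alternatives run on class sums, but 4 class-sum differences nearer 0 changed sign. That of the others for P14 against P12 THY1 was -0.03 and became 0.03 with that scaling. Without the most abundant chain of the class, basement membrane for P12 against P7 THY1 went from -0.33 to 0.21, and for P7 KIT against P7 THY1 fibrillar went from 0.16 to -0.12 and the others from 0.06 to -0.17. With a pseudocount of 0.1, the count of chains was 8 in place of 5 for P14 KIT against P14 THY1 and 1 (higher) in place of 0 for P7 KIT against P7 THY1. With no minimum it was 2 in place of 1 for P14 THY1 against P12 THY1. With P7 VASA THY1 in place of P7 THY1, 6 chains were higher in P12 THY1 and 3 in P7 KIT, in place of 0 each. The cause was not tested. Shares of all genes were not computed for any of these alternative counts. With Col15a1 and Col18a1 moved from the others to basement membrane, the log2 difference of the basement membrane sum was -3.16 for P0 OCT4-GFP against P0 THY1, -4.17 for P7 ID4-GFP and -2.07 for P7 VASA THY1, both against P7 THY1. That of the others was -4.12 for P7 against P0 THY1 and 0.93 for P14 against P12 THY1. Without the most abundant chain, Col4a1, the basement membrane difference for P7 VASA THY1 was -2.39. Read depth is unknown, so values under about 1 FPKM carry an error that cannot be given.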

Other observations

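Among the genes outside the symbol rule, 2 collagen chains stand in the table under older symbols. Col26a1, listed as Emid2, stood at 27.1 FPKM in P0 THY1, 8.75 FPKM in P14 KIT and 0.199 FPKM in P7 ID4-GFP, with a median of 2.44 FPKM over the 11 groups. Col6a5, a type VI chain listed as Gm7455, stood at 7.04 FPKM in P0 THY1 and 1.18 FPKM in P0 OCT4-GFP, with a median of 0.157 FPKM. Both were highest in P0 THY1, as 31 of the 41 chains were.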
